A study of Mus musculus with 30 samples.

Results

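Mouse glioblastomas started with the same promoter at 2 sites of the forebrain were compared, tumors of the subventricular zone (SVZ) against tumors of the hippocampus (HP). The comparison took every array labelled with a GFAP-CRE tumor of either site, 3 SVZ arrays and 7 HP arrays, out of 30 arrays in the series, and all 19938 genes with a symbol of their own. In the SVZ group a construct with Cre under the GFAP promoter was injected into the subventricular zone, and in the HP group the same kind of construct was injected into the hippocampus. Strain, age, the alleles of the host mice and the rest of the construct are not given in the sources used here, and nothing says whether the arrays came from separate animals, so each p-value speaks for the variation among these arrays alone, part or all of which may be technical. The other 20 arrays (GFAP tumors of the cortex, SYN1 and NES tumors, normal cortex and normal hippocampus) served to estimate the spread between arrays and, for normal brain, as a level to set values against. There was no array of normal SVZ.

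The SVZ lines the lateral ventricle and, with the dentate gyrus of the hippocampus, is a place where neural stem cells persist in the adult rodent brain. Both astrocytes and these stem cells express GFAP, the intermediate filament gene whose promoter drove Cre here. Stem cells of the SVZ give rise mainly to interneurons of the olfactory bulb, and transcription factors that pattern the ventral forebrain, such as the Dlx, Gsx and LIM homeobox families, are known for marking these lineages. Glioblastomas also hold macrophages, lymphocytes and vessels, so a bulk array reads all of these cells at once. In such samples fewer cells of a type and less RNA per cell cannot be told apart.

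The 10 arrays did not vary along the line between the sites alone. On the first principal component of these arrays, which held 49.3% of their variance, the SVZ tumors lay between -33.38 and -12.64 and HP tumors 1 to 4 between -39.88 and -13.37, while HP tumors 5, 6 and 7 lay at 92.37, 52.47 and 46.05. Array medians were 7.21 to 7.22 in the SVZ tumors, 7.10 to 7.28 in HP tumors 1 to 4 and 7.03 to 7.07 in HP tumors 5 to 7. The labels give no batch for them. The comparison was therefore made against HP tumors 1 to 7 and against HP tumors 1 to 4 alone; both use the same 3 SVZ arrays. Among the SVZ arrays, tumor 3 stood apart from the other two, at 44.41 on the third component against 8.15 and 10.06. Cell cycle genes lay above normal brain in all 10 arrays, by a mean of 1.59 to 2.30 (log2) over normal brain in the SVZ tumors and 0.47 to 2.67 in the HP tumors, against -0.08 to 0.11 among the normal arrays.

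Against HP tumors 1 to 7, 63 genes differed (limma, Benjamini-Hochberg adjusted p under 0.05), which is 0.316% of the genes tested. Of these 30 were higher in SVZ tumors (0.15%) and 33 lower (0.166%), with median sizes of 1.05 and 0.81 on the log2 scale. The higher genes were led by the chemokine gene Cxcl9 and included genes of cytotoxic lymphocytes and of the major histocompatibility complex (MHC). The lower genes were led by the LIM homeobox gene Lhx8, and 22 of the 33 lay on chromosomes 4 and 8. The median of all genes was higher in SVZ tumors by 0.06, and 3026 genes had an unadjusted p under 0.05. In 849 genes (4.26%) the 3 SVZ arrays lay on one side of all 7 HP arrays, above them in 542 (2.72%) and below them in 307 (1.54%). In the narrower comparison with HP tumors 1 to 4, 23 genes differed (0.115%): 2 were higher in SVZ tumors (0.01%) and 21 lower (0.105%), and 10 of these 23 were also among the 63. Of the 38 genes named below from the comparison with HP tumors 1 to 7, 4 also passed against HP tumors 1 to 4 (Lipg, Lhx8, Gtf2e2 and Nup133); their direction there is fixed by the choice of genes without overlap. The other 34 had limma adjusted p-values of 0.0605 to 0.194 in that comparison. Against HP tumors 5 to 7 alone 5656 genes (28.4%) differed.

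These calls rest on few arrays and on a spread pooled over all arrays of the series, normal brain included. The mean correlation of an array with its group was 0.992 to 0.995 in normal brain and 0.889 to 0.967 in SVZ and HP tumors. For Lhx8 the SD was 0.098 in normal hippocampus, 0.187 in the SVZ tumors and 1.274 in HP tumors 1 to 7. The SEs given below are thus not the spread of the compared tumors alone and may be too small for them. With the spread estimated from the 10 tumors alone 0 genes passed (limma; 691 higher and 729 lower at unadjusted p under 0.05). Without SVZ tumor 1, 3 higher and 1 lower gene passed, and without SVZ tumor 2, 2 higher and 1 lower. Without HP tumor 4, 187 higher and 136 lower genes passed. Without SVZ tumor 3 the counts were 53 and 53, without HP tumor 3 they were 31 and 20, without HP tumor 6 they were 20 and 17 and without HP tumor 7 they were 16 and 12. After quantile normalization of the arrays 85 genes were higher and 60 lower. For the comparison with HP tumors 1 to 4 that scaling gave 11 higher and 22 lower genes, and centring each array on its median gave 7 and 13. Leaving out 1 array there gave 3 and 5 (SVZ tumor 1), 0 and 4 (SVZ tumor 2), 28 and 82 (SVZ tumor 3), 1 and 14 (HP tumor 1), 1 and 3 (HP tumor 3) and 11 and 22 (HP tumor 4).

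**Figure D1:**
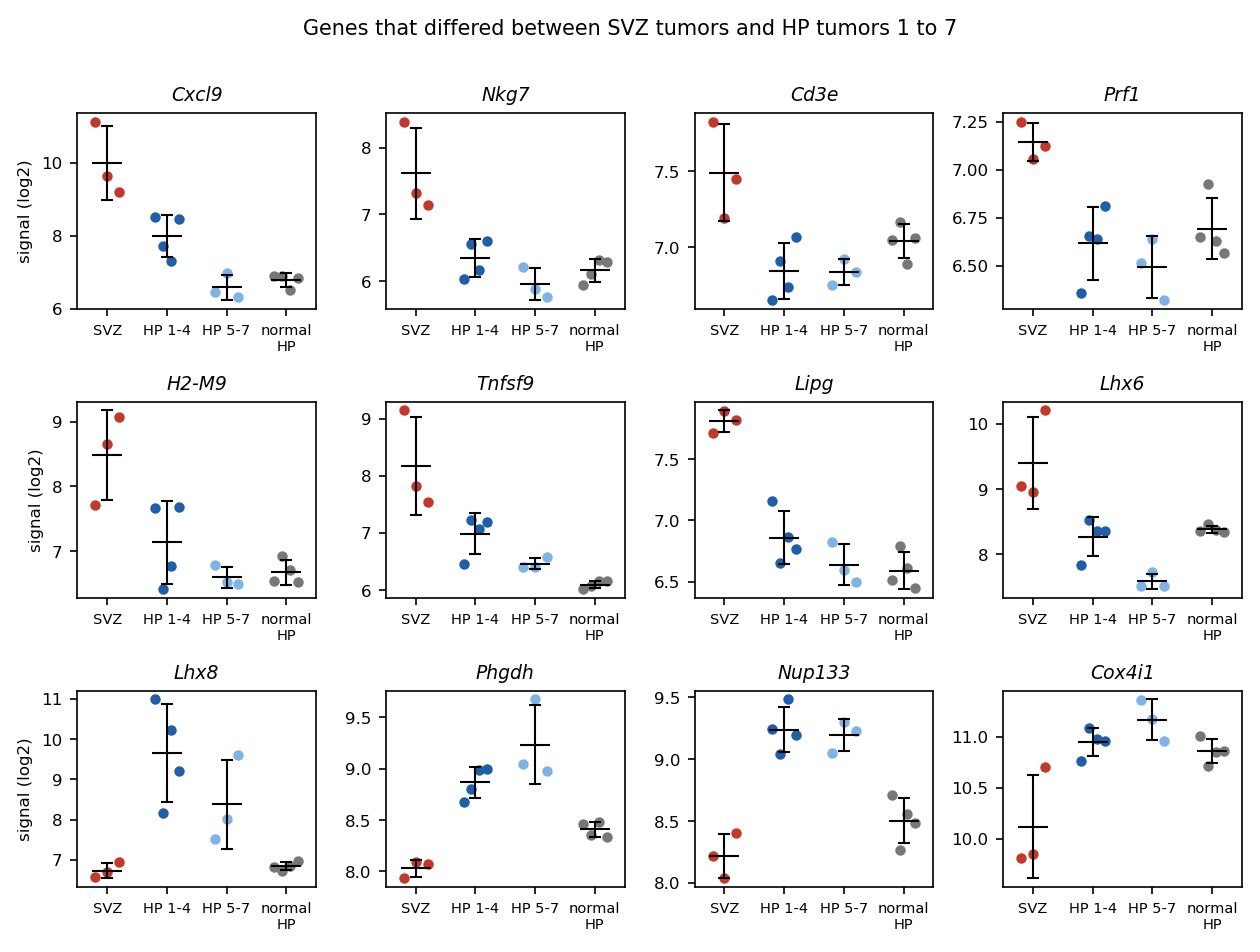
Log2 signal of 12 genes (1 panel each, vertical axis) in single arrays: SVZ tumors (red), HP tumors 1 to 4 (dark blue), HP tumors 5 to 7 (light blue) and normal hippocampus (grey), with bars at the mean ± SD. In each panel all 3 SVZ points lie on one side of all 7 HP points, by the rule that chose the genes. Lhx8 in the SVZ tumors sits at the level of normal hippocampus.

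Several genes known from cytotoxic lymphocytes were higher in SVZ tumors. Cxcl9, an interferon-gamma induced chemokine that draws T cells, had signals of 11.12, 9.63 and 9.18 in the SVZ tumors, against 6.30, 7.31 and 8.51 as the lowest, median and highest of the 7 HP tumors. The SVZ and HP arrays did not overlap, which the choice of named genes required, and normal hippocampus lay at 6.51 to 6.90. The difference was 2.59 ± 0.49 (log2, SE), a 6.04-fold higher signal in SVZ tumors (limma adjusted p = 0.0206), and SVZ tumor 1 was the highest. Set against HP tumors 1 to 4 it was 1.99 and missed the threshold (limma adjusted p = 0.0899). Nkg7, a granule membrane protein of natural killer (NK) and cytotoxic T cells, had 8.40, 7.32 and 7.14 in the SVZ tumors, against 5.75, 6.17 and 6.61 (lowest, median, highest) in the HP tumors. The difference was 1.44 ± 0.25 (limma adjusted p = 0.0206), and 1.28 against HP tumors 1 to 4, which did not pass (limma adjusted p = 0.0605). SVZ tumor 1 was again the highest. Nkg7 and the granzyme gene Gzmk below were among the 30% of genes with the lowest mean signal, and for Nkg7 the HP tumors lay around the range of normal hippocampus (5.94 to 6.31), so a fold is not given.

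A chain of the T cell receptor complex and the pore-forming protein of killing granules rose too. Cd3e, an invariant chain of that receptor, had 7.83, 7.19 and 7.45 in the SVZ tumors, against 6.65, 6.83 and 7.07 in the HP tumors (lowest, median, highest), a difference of 0.65 ± 0.13 (limma adjusted p = 0.0239). Prf1, which encodes perforin, had 7.25, 7.05 and 7.12, against 6.32, 6.64 and 6.81 in the HP tumors, a difference of 0.58 ± 0.12 (limma adjusted p = 0.0304). For both genes the signal in HP tumors was within or below the range of normal hippocampus, where Cd3e lay at 6.89 to 7.16 and Prf1 at 6.57 to 6.92. Gzmk, a granzyme, had 7.30, 6.57 and 6.23 in the SVZ tumors, against a highest HP value of 6.17, so the groups did not overlap but SVZ tumor 3 lay next to the highest HP tumor (0.76 ± 0.16, limma adjusted p = 0.0408). Against HP tumors 1 to 4 neither Cd3e (0.65, limma adjusted p = 0.0693), Prf1 (0.53, limma adjusted p = 0.107) nor Gzmk (0.60, limma adjusted p = 0.170) passed. SVZ tumor 3 was within the range of normal hippocampus for this gene, 6.12 to 6.44. Tigit, an inhibitory receptor of T and NK cells, rose by 0.77 ± 0.14 (limma adjusted p = 0.0206), with 8.41, 8.08 and 7.84 in the SVZ tumors and at most 7.74 in the HP tumors. Gpr18, a receptor gene known from lymphocytes, rose by 0.47 ± 0.10 (limma adjusted p = 0.0413). Tnfsf9, a costimulatory ligand of the tumor necrosis factor family, had 9.14, 7.82 and 7.55, against 6.40, 6.58 and 7.23 in the HP tumors (1.41 ± 0.28, limma adjusted p = 0.0258).

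Over the list of T and NK cell markers 3 of 15 measured genes passed (Cd3e, Prf1 and Nkg7), all higher in SVZ tumors, where 0.15% of all genes were called higher. The median difference of the list was 0.40, against 0.06 over all genes, and 14 of 15 differences were positive, against 58.4% of all genes. The remaining 12 did not pass. Cd3g had a difference of 0.82 that came from SVZ tumor 1 (7.74, with 6.19 and 5.99 in the other two SVZ arrays and up to 6.17 in HP tumors; limma adjusted p = 0.114). Cd4 differed by 0.62 (limma adjusted p = 0.135) and the chemokine gene Ccl5 by 0.75 (limma adjusted p = 0.528). Gzma, a further granzyme, differed by -0.15. Averaged over the 15 genes, the SVZ arrays lay 0.81, 0.41 and 0.47 above normal brain, against -0.10 to 0.22 for the 7 HP arrays and -0.08 to 0.08 for the normal arrays. The median of the list against HP tumors 1 to 4 was 0.34 with none of the 15 called (all genes: -0.06). Monocyte and macrophage genes, by comparison, had means of 2.07 to 2.46 over normal brain in SVZ tumors and 1.26 to 2.47 in HP tumors, with 0 of 17 called and a median difference of 0.12. None of 11 microglia genes and none of 13 B cell and neutrophil genes was called.

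**Figure D2:**
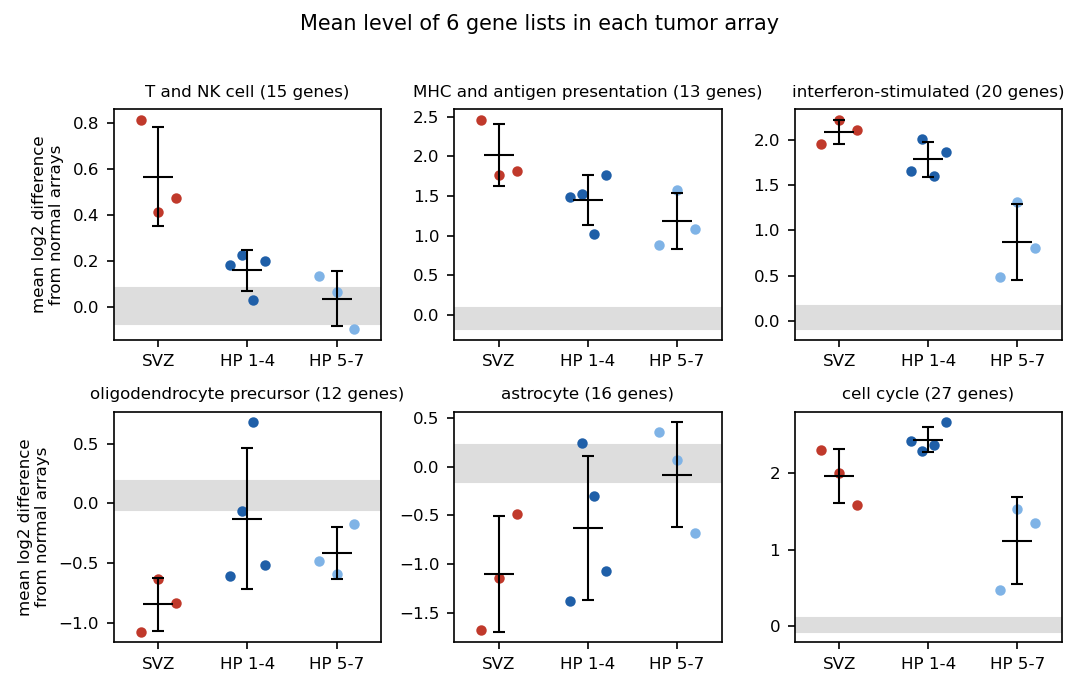
Mean log2 difference from the 8 normal arrays (vertical axis) over the genes of 6 lists, 1 point per tumor array in SVZ tumors (red), HP tumors 1 to 4 (dark blue) and HP tumors 5 to 7 (light blue), with bars at the mean ± SD; the grey band is the range of the normal arrays. The T and NK cell list runs from 0.41 to 0.81 in SVZ tumors and from -0.10 to 0.22 in HP tumors, while HP tumors 5 to 7 lie below HP tumors 1 to 4 for interferon-stimulated and cell cycle genes.

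The sequences just upstream of some genes from this group, and of Lhx8, are shown as examples picked without a fixed rule. They are the 250 bases before the annotated start of each gene in RefSeq (GRCm38.p6), 5′ to 3′ on the strand of the gene, and capitals mark matches to ACGTG (the core bound by hypoxia-inducible factors) on either strand; TAATTA (a homeodomain core) and an interferon response motif (GAAA, any 2 bases, GAAA) were searched on both strands too and had no match in these 5 windows.
Cxcl9 (chr5:92328080-92328329, minus strand): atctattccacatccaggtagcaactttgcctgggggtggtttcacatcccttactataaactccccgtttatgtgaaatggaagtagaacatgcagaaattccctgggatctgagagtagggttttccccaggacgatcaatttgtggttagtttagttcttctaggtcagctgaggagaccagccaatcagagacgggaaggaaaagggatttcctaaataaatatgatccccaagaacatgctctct
Cd3e (chr9:45009612-45009861, minus strand): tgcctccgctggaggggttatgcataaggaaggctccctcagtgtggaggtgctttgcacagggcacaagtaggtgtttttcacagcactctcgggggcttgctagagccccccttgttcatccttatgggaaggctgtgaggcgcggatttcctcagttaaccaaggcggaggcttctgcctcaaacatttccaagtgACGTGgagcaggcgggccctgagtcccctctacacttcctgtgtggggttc
Tigit (chr16:43664185-43664434, minus strand): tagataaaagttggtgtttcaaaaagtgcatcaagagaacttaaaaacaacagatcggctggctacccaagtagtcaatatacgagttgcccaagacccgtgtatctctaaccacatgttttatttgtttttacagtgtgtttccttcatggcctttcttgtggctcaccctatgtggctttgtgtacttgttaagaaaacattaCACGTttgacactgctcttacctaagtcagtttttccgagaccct
Gzmk (chr13:113180966-113181215, minus strand): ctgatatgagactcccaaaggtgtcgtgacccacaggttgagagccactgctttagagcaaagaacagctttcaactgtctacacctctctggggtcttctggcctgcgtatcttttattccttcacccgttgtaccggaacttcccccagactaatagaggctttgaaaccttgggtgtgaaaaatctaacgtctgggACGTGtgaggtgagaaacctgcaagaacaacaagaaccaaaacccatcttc
Lhx8 (chr3:154330561-154330810, minus strand): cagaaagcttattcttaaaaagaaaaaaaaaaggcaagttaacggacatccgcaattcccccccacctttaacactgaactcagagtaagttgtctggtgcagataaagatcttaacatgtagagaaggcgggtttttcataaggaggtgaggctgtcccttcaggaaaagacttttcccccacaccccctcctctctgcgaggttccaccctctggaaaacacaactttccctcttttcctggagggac

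ACGTG began 51 bases before the start in Cd3e and in Gzmk. In Tigit it lay on the opposite strand, from 45 to 41 bases before the start. Gpr18, another lymphocyte gene, is not shown and held no ACGTG. The windows shown therefore give no share for the lymphocyte genes. Of the 30 genes higher in SVZ tumors 19 had a promoter in the table, and 6 of these (31.6%) held ACGTG. Of the 33 lower genes 24 had one, and 7 (29.2%) held it, against 18.5% of all genes in the table. TAATTA was found in 2 of 19 higher genes (10.5%, among them Plekhf1) and in none of 24 lower genes, against 5.7% of all genes. The interferon response motif was found in 1 gene of each set (Gpr18 and Slc25a15), 5.3% and 4.2%, against 3.5% of all genes. A match is a description of these letters only, and the shares with ACGTG in the higher and the lower genes lay close to each other.

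MHC class II genes, which present antigen to helper T cells, were high in SVZ tumor 1 above all. H2-Aa had 11.88, 10.49 and 10.05 in the SVZ tumors, against 7.66, 8.76 and 10.12 in the HP tumors (lowest, median, highest), and differed by 2.01 ± 0.46, at the edge of the threshold (limma adjusted p = 0.0496), and by 1.53 against HP tumors 1 to 4 (limma adjusted p = 0.199). SVZ tumor 3 lay below HP tumor 4, so the groups overlapped. Its partner H2-Ab1 differed by 1.46 (limma adjusted p = 0.0893), H2-Eb1 by 1.56 (adjusted p = 0.0843) and the invariant chain Cd74 by 2.25 (adjusted p = 0.0835), and none of these passed. H2-Aa was the only member called of 13 measured genes for antigen presentation, whose median was 0.46. The class I light chain B2m differed by -0.35 and Nlrc5, the class I transactivator, by 0.01, and neither passed. The class I-like gene H2-M9 had 7.71, 8.66 and 9.06 in the SVZ tumors, against 6.42, 6.78 and 7.68 in the HP tumors, a difference of 1.57 ± 0.29 (limma adjusted p = 0.0206), and of 1.34 from HP tumors 1 to 4 (limma adjusted p = 0.0795). Here SVZ tumor 3 was highest, and SVZ tumor 1 lay only just above HP tumors 1 and 4. H2 genes have close relatives in the same gene cluster, so their probe sets can read each other's RNA. Of the 30 higher genes 7 lay on chromosome 17 (23.3%, against 4.69% of the genes tested), among them H2-M9, H2-Aa and, with overlapping groups, H2-M1 (1.27) and the complement gene C2 (1.37), all of the MHC region. H2-M1 and C2 were singled out after their values were seen.

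Of 20 measured genes induced by interferon, Cxcl9 alone was called against HP tumors 1 to 7, 8 were called higher against HP tumors 5 to 7, where 22.7% of all genes were, and 0 against HP tumors 1 to 4. The medians of the list were 0.69, 1.04 and 0.20 in the same order, against 0.06, 0.16 and -0.06 over all genes. Ifit1, an antiviral effector, had 9.63, 10.42 and 10.42 in the SVZ tumors, which lay within 9.61 to 10.31 of HP tumors 1 to 4 or just above it, while HP tumors 5, 6 and 7 had 7.31, 8.66 and 7.89. The difference for Ifit1 was 1.04 (limma adjusted p = 0.418). Mesenchymal glioma genes had a median of 0.36 against HP tumors 1 to 7 and -0.04 against HP tumors 1 to 4, and with none of 21 called in either.

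**Figure D3:**
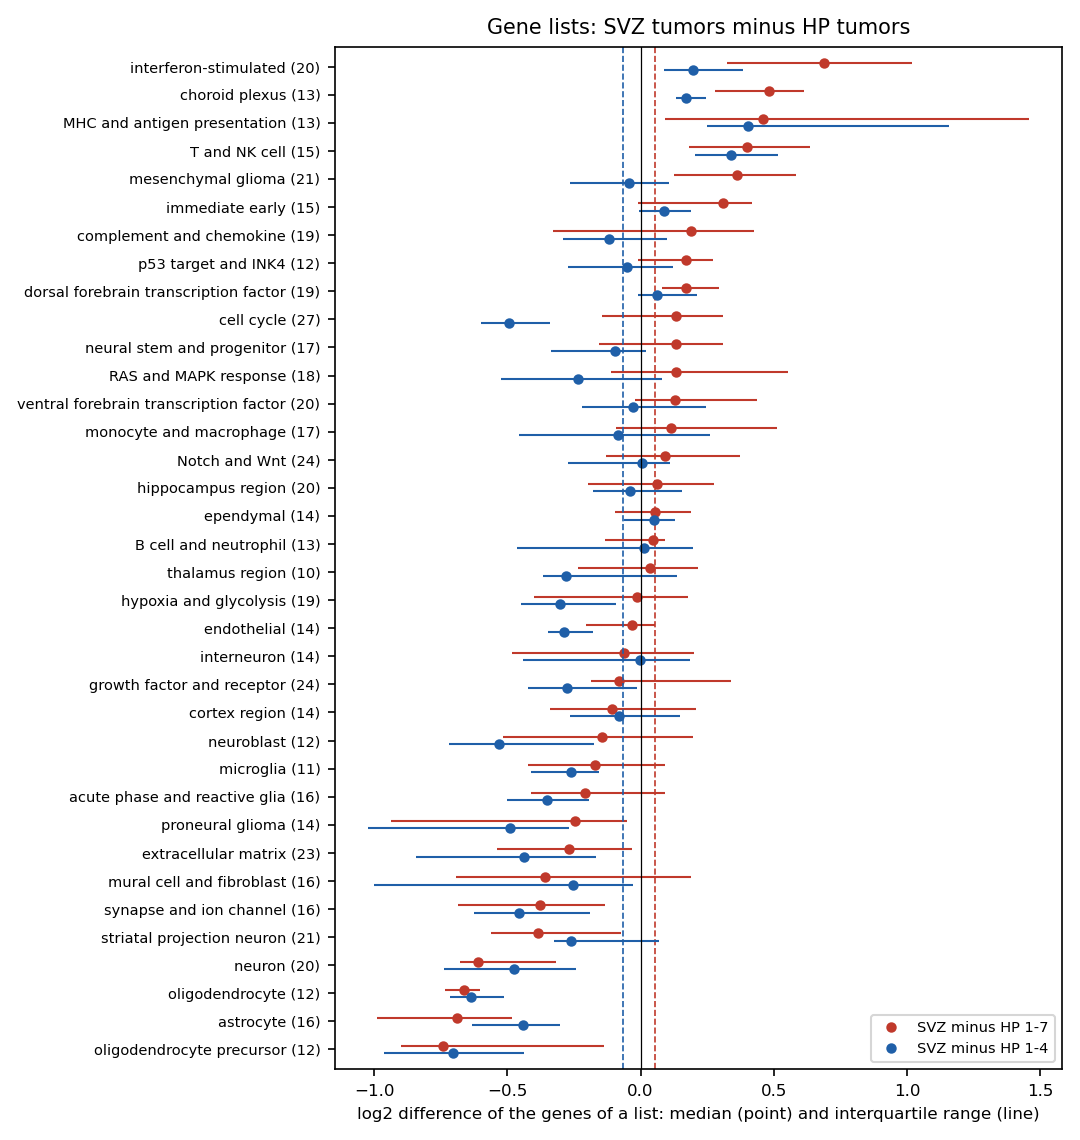
Median (points) and interquartile range (lines) of the log2 differences of the genes of 36 lists, in SVZ minus HP tumors 1 to 7 (red) and SVZ minus HP tumors 1 to 4 (blue), with the number of measured genes in brackets; dashed lines mark the medians of all genes, 0.06 and -0.06. The T and NK cell list is at 0.40 and 0.34, the oligodendrocyte precursor list at -0.74 and -0.71, and the cell cycle list at 0.13 and -0.50.

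Lhx8 and Lhx6, paired LIM homeobox genes of the ventral forebrain, went opposite ways. Lhx8, known for specifying cholinergic neurons, had 6.56, 6.69 and 6.93 in the SVZ tumors and 10.99, 8.17, 10.24, 9.22, 7.50, 8.01 and 9.61 in HP tumors 1 to 7. Normal hippocampus lay at 6.72 to 6.96 and GFAP cortex tumors at 7.18 to 8.51, so the SVZ tumors were at or just under the level of normal hippocampus and every HP tumor was above it. The difference was -2.37 ± 0.51 (5.18-fold lower in SVZ tumors, limma adjusted p = 0.0384), and -2.92 against HP tumors 1 to 4 (limma adjusted p = 0.0125). Lhx6, which directs the interneurons that arise in the medial ganglionic eminence, had 9.04, 8.95 and 10.21 in the SVZ tumors, against 7.52, 7.84 and 8.53 in the HP tumors (lowest, median, highest). It was 2.68-fold higher in SVZ tumors (1.42 ± 0.28, limma adjusted p = 0.0215), above both the HP tumors and normal hippocampus (8.34 to 8.46). Its difference of 1.13 from HP tumors 1 to 4 did not pass (limma adjusted p = 0.110).

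The rest of the ventral forebrain list held no call. Of 20 measured factors only these 2 were called, and the median was 0.13 (all genes: 0.06). Dlx1 and Dlx2, which drive interneuron production, had differences of -0.05 and -0.01, Gsx2, a regulator of SVZ progenitors, 0.17 and Nkx2-1, the regulator upstream of both LIM genes in the embryo, 0.09. Isl1, a LIM homeobox gene of striatal and cholinergic neurons, read 10.17 and 9.0 in SVZ tumors 1 and 2 but 6.54 in SVZ tumor 3, against 6.24 to 7.77 in the HP tumors (1.43 ± 0.49, limma adjusted p = 0.170). None of the 19 dorsal forebrain factors was called (median 0.17). None of 21 genes of striatal projection neurons (median -0.39), 14 ependymal genes (0.06) or 13 choroid plexus genes (0.48) passed either. Ttr, the transthyretin gene of the choroid plexus, varied within both groups, with 12.10, 13.14 and 7.83 in the SVZ tumors and 6.52 to 13.32 in the HP tumors. Genes of the hippocampus were low at both sites: their mean difference from normal brain was -2.02 to -1.29 in the SVZ tumors and -2.15 to -1.38 in the HP tumors, with 0 of 20 called between the sites. Prox1, the granule cell factor of the dentate gyrus, had 7.22, 7.32 and 7.18 in the SVZ tumors and 7.01 to 8.15 in the HP tumors, against a mean of 9.98 in normal hippocampus. Of the regional genes listed, only Lhx6 and Lhx8 passed the test.

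The remaining genes higher in SVZ tumors were of mixed kinds. Lipg, the endothelial lipase, had 7.71, 7.89 and 7.82 in the SVZ tumors, against 6.50, 6.76 and 7.16 in the HP tumors (lowest, median, highest). Its difference of 1.04 ± 0.14 had the smallest p of the comparison (limma adjusted p = 0.00193), and it also passed against HP tumors 1 to 4 (0.95, limma adjusted p = 0.00829). The SD of the SVZ arrays was 0.09, and normal hippocampus lay at 6.44 to 6.79. Normal cortex had a mean of 7.33, above every HP tumor and below every SVZ tumor. None of the 14 endothelial marker genes was called (median -0.03), so Lipg did not move with that list. Dmpk, the myotonic dystrophy kinase, had 10.26, 9.45 and 9.57, against 7.98, 8.43 and 8.94 in the HP tumors (1.29 ± 0.25, limma adjusted p = 0.0206). The endosomal adaptor gene Plekhf1 rose by 1.23 ± 0.22, Bend7 by 1.25 ± 0.24 and Desi2, of a family of desumoylating proteases, by 1.07 ± 0.22 (limma adjusted p = 0.0206, 0.0215 and 0.0316 in this order). For Desi2 normal hippocampus (8.86 to 9.13) lay below the SVZ tumors (9.21 to 9.55) and above the median HP tumor (8.05). The paired box gene Pax9, a developmental regulator, had 7.57, 7.30 and 7.78, against 6.29, 6.69 and 7.08 in the HP tumors (0.86 ± 0.17, limma adjusted p = 0.0206). Pnldc1, an exonuclease that trims germline small RNAs, and Lrrc3c differed by 0.45 and 0.56. Their signals were 6.64 to 7.02 in the SVZ tumors, and Pnldc1 was also among the 30% of genes with the lowest mean. For Lrrc3c the SVZ tumors (6.82 to 7.02) lay within or just under normal hippocampus (6.96 to 7.24). The HP tumors (6.01 to 6.74) were below it. Of the other 12 higher genes 8 had overlapping groups, among them the developmental regulators Irx1 (1.66), Hand2 (0.87) and Pax1 (0.63), singled out after their values were seen, and 4 without overlap carried provisional, small RNA or immunoglobulin symbols. One of those, BC018473, was singled out after its values were seen: beside Lipg it was the only gene higher against HP tumors 1 to 4 (1.36, limma adjusted p = 0.0214).

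Some of the lower genes encode mitochondrial proteins. No list of such genes was fixed, so their share among all genes was not taken. Cox4i1, Slc25a4 and Mmaa lie on chromosome 8 and Park7 on chromosome 4. Neither these nor Lonp1 passed against HP tumors 1 to 4 (limma adjusted p from 0.08445 to 0.1885). Cox4i1, a subunit of cytochrome c oxidase, had 9.81, 9.85 and 10.70 in the SVZ tumors, against 10.76, 10.98 and 11.36 in the HP tumors (lowest, median, highest). It was 1.90-fold lower in SVZ tumors (-0.92 ± 0.18, limma adjusted p = 0.0206), with SVZ tumor 3 next to the lowest HP tumor. Slc25a4, the carrier that exchanges ADP and ATP, had 11.42, 11.48 and 12.02, against at least 12.25 in the HP tumors (-0.78 ± 0.17, limma adjusted p = 0.0408). Lonp1, a protease of the matrix, differed by -0.78, Mmaa, a factor of vitamin B12 metabolism, by -0.78 and Park7, an oxidative stress sensor found in part in mitochondria, by -0.88 (limma adjusted p = 0.0439, 0.0384 and 0.0384 in this order). Mmaa read 6.74, 6.73 and 6.77 in the SVZ tumors, against 7.16 to 8.05 in the HP tumors.

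Phgdh, the first enzyme of serine synthesis, had 7.93, 8.09 and 8.07 in the SVZ tumors, against 8.68, 8.99 and 9.67 in the HP tumors, and was 1.99-fold lower (-0.99 ± 0.20, limma adjusted p = 0.0287). The SVZ tumors lay below normal hippocampus (8.33 to 8.49) and the HP tumors above it. Papss1, which makes the activated sulfate donor, differed by -0.83 ± 0.18 (limma adjusted p = 0.0384). Ebna1bp2, a nucleolar factor of ribosome assembly, differed by -0.94, and the ribosomal protein genes Rplp1 and Rpsa by -0.86 and -0.82 (limma adjusted p = 0.0239, 0.0439 and 0.0384 in this order). Rplp1 and Rpsa have many processed copies in the genome, and after quantile normalization Rplp1 differed by -0.31, so their values are uncertain. Rpl13 and Afg3l1, chosen after their values were seen, were the only lower genes whose groups overlapped.

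Further lower genes act in the nucleus, a group for which no list was fixed either. Nup133, a scaffold of the nuclear pore, had 8.21, 8.04 and 8.40 in the SVZ tumors, against 9.04, 9.23 and 9.48 in the HP tumors (lowest, median, highest). The difference was -1.0 ± 0.16 (limma adjusted p = 0.0123), and -1.02 against HP tumors 1 to 4 (limma adjusted p = 0.0170). Gtf2e2, a subunit of the general transcription factor TFIIE, had 7.68, 7.69 and 7.31, against 7.98, 8.63 and 8.98 in the HP tumors (-1.02 ± 0.19, limma adjusted p = 0.0206), and passed against HP tumors 1 to 4 as well (-1.10, limma adjusted p = 0.0289). In normal hippocampus Gtf2e2 lay at 7.0 to 7.44, close to the SVZ tumors. Ash2l, a core subunit of histone H3 lysine methyltransferases, differed by -0.81, the splicing-associated Dnajc8 by -0.87 and the RNA-binding Ro60 by -0.91 (limma adjusted p = 0.0408, 0.0287 and 0.0384 in this order). Of surface proteins, Tmeff1 differed by -1.07, Aplp2, a relative of the amyloid precursor protein, by -0.81 and the protocadherin Pcdhb16 by -1.30. Pcdhb16 belongs to a cluster of near-identical genes and is uncertain for that reason. Armcx4 differed by -0.79.

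The lower genes clustered on chromosomes. By the RefSeq annotation (GRCm38.p6), 13 of the 33 lay on chromosome 8 (39.4%, against 4.79% of the genes tested) and 9 on chromosome 4 (27.3%, against 5.79%). On chromosome 8 these included Nup133, Gtf2e2, Cox4i1, Ash2l, Mmaa and Slc25a4, and on chromosome 4 Tmeff1, Ebna1bp2, Park7 and Dnajc8. Against HP tumors 1 to 4, 9 of 21 lower genes lay on chromosome 8 (42.9%) and 3 on chromosome 4. Without the threshold, all 3 SVZ arrays lay below all 7 HP arrays in 2.93% of genes of chromosome 8 and 2.69% of chromosome 4, against 1.54% of all genes. Chromosomes 3 (2.97%), 18 (2.55%) and 9 (2.40%) had similar shares, so by this count chromosomes 4 and 8 did not stand apart. All 3 SVZ arrays lay below HP tumors 1 to 4 in 14.55% of genes of chromosome 8, 11.53% of chromosome 4 and 9.65% of chromosome 3, against 6.28% of all genes.

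The medians of whole chromosomes differed between single arrays. Over the genes whose mean signal was at or above the median of all genes, each array's median difference from the normal arrays was taken chromosome by chromosome, relative to the array's own median over all chromosomes. This measure was chosen after the chromosomes of the called genes were seen. For chromosome 8 it was -0.17, -0.21 and -0.02 in the SVZ tumors, against -0.04 to 0.05 in the 7 HP tumors and -0.02 to 0.02 among the normal arrays. For chromosome 4 it was -0.36, -0.31 and 0.02 in the SVZ tumors, against -0.25 to 0.01 in the HP tumors. Chromosome 16 was lower still in SVZ tumors 1 and 2, at -0.46 and -0.50, with -0.09 in SVZ tumor 3, but HP tumors 1 and 4 were also low, at -0.39 and -0.37, and no gene of chromosome 16 was called lower. Chromosomes 4, 8 and 16 were thus low in both SVZ tumor 1 and SVZ tumor 2, while chromosome 14 was low in SVZ tumor 1 (-0.34) and at -0.08 in SVZ tumor 2. SVZ tumor 3 had values near 0 for chromosomes 4 and 8. Chromosome 3 was raised in every HP tumor, from 0.07 to 0.42, and in SVZ tumors 1 and 2 (0.20 and 0.18). SVZ tumor 3 was at 0.01. In the tumors of the other groups chromosome 3 was raised too, from 0.08 to 0.39. Taken over all genes, bright or dim, the SVZ and HP arrays overlapped for chromosomes 8 and 4. Chromosome 8 then had -0.06, -0.09 and -0.03 in the SVZ tumors, against -0.08 to 0.02 in the HP tumors. Chromosome 4 had -0.104, -0.145 and -0.015 in the SVZ tumors, against -0.12 to -0.03 in the HP tumors.

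**Figure D4:**
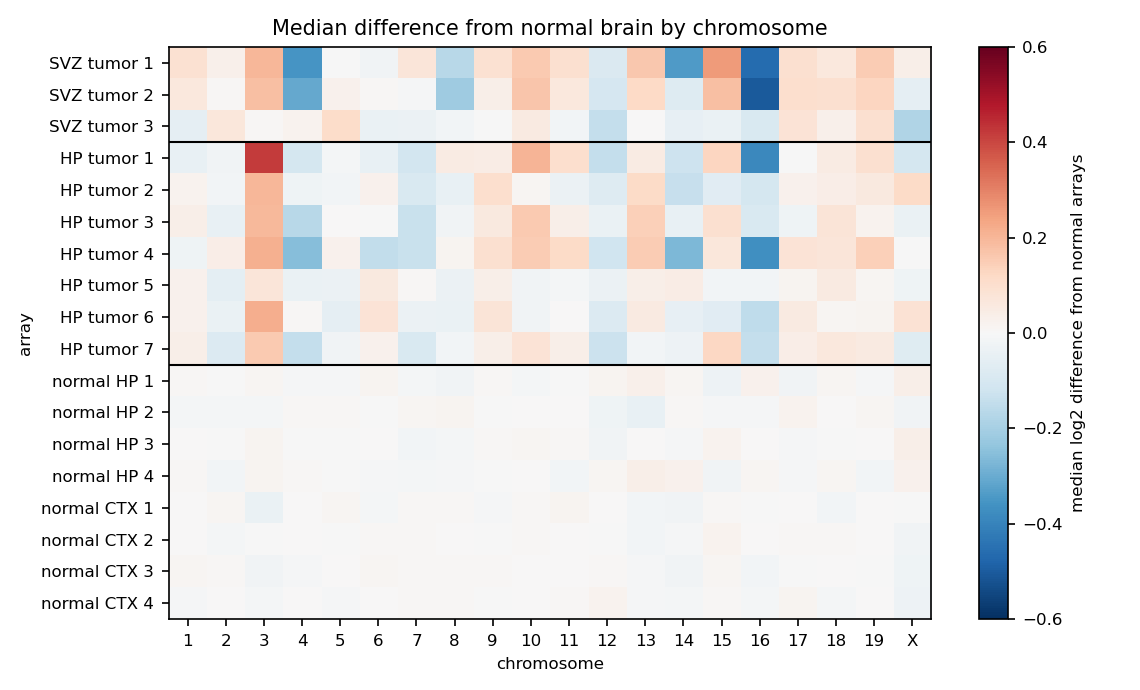
Median log2 difference from the normal arrays (colour) over the brighter genes of each chromosome (horizontal axis) in each array (rows), relative to the array's own median over all chromosomes; horizontal lines part SVZ tumors, HP tumors and normal arrays. Chromosomes 4, 8 and 16 are low in SVZ tumors 1 and 2 (chromosome 8 at -0.17 and -0.21) while the 8 normal arrays stay between -0.04 and 0.04 throughout.

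Along chromosome 8 the shift was uneven. Its genes were split into 4 equal parts in order along the chromosome, and medians were taken over the brighter genes of each part. The second part had medians of -0.48, -0.38 and -0.16 in the SVZ tumors, against -0.16 to 0.01 in the HP tumors. The third part had -0.03, -0.03 and 0.04 in the SVZ tumors. The 13 lower genes fell 4, 3, 1 and 5 into the parts in order. On chromosome 4 all 4 parts were low in SVZ tumors 1 and 2, from -0.39 to -0.19. SVZ tumor 3 had -0.137, -0.002, 0.135 and 0.021 in the parts in order. The HP tumors lay between -0.351 and 0.071 over the parts. HP tumor 4 was low too, at -0.277, -0.351, -0.143 and -0.2, and in the second part it lay below SVZ tumor 2 (-0.342). A cause of these shifts was not tested.

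The sexes of the hosts are not given, and the sex-linked genes differed between arrays. Xist, the RNA that silences one X chromosome in female cells, read 5.69, 5.83 and 5.95 in the SVZ tumors and 11.46, 11.41, 5.77, 11.45, 5.95, 10.74 and 6.14 in HP tumors 1 to 7. The Y-linked gene Eif2s3y read 9.66, 9.33 and 9.23 in the SVZ tumors, and 9.80, 8.30 and 8.85 in HP tumors 3, 5 and 7, but at most 5.50 in HP tumors 1, 2, 4 and 6. All SVZ arrays and 3 HP arrays thus shared one pattern and 4 HP arrays the other. Among HP tumors 1 to 4, tumor 3 alone had the pattern of the SVZ arrays. None of the 4 measured sex-linked genes passed (limma adjusted p from 0.208 to 0.257). With the Xist level as a covariate, an alternative added after these values were seen, 25 genes were higher and 7 lower against HP tumors 1 to 7, 19 and 6 of them from the original calls. Cxcl9 kept its call (2.99, limma adjusted p = 0.0234) and Lhx8 did not (-2.36, limma adjusted p = 0.0696). Against HP tumors 1 to 4 the same covariate left 0 of 2 higher and 3 of 21 lower genes.

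Of the 21 genes lower against HP tumors 1 to 4, 10 are described here that the first comparison did not name. Levels of HP tumors 5 to 7, or differences from them, are given beside each. Stra6, the cell surface receptor for retinol-binding protein, had 8.31, 8.91 and 8.13 in the SVZ tumors, against 10.18, 10.63, 11.09 and 10.02 in HP tumors 1 to 4 and 7.76, 9.55 and 9.64 in HP tumors 5 to 7. It was 4.08-fold lower in SVZ tumors than in HP tumors 1 to 4 (-2.03 ± 0.37, limma adjusted p = 0.0199). Ptchd1, a patched-related membrane protein, had 8.18, 7.76 and 7.32 in the SVZ tumors, against 8.85, 9.0, 9.81 and 9.45 in HP tumors 1 to 4 and 8.01, 7.76 and 8.24 in HP tumors 5 to 7 (-1.52 ± 0.22 against HP tumors 1 to 4, limma adjusted p = 0.00248). The groups of this contrast did not overlap, which the choice of genes required. HP tumors 5 to 7 overlapped the SVZ tumors for Ptchd1.

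Pde8a, a phosphodiesterase of cyclic AMP, had 8.26, 8.42 and 7.82 in the SVZ tumors, against 9.18, 9.28, 9.20 and 9.07 in HP tumors 1 to 4 (-1.02 ± 0.15, limma adjusted p = 0.00411), with 8.28 to 8.42 in HP tumors 5 to 7. The same held for Bche, butyrylcholinesterase (-1.17), Nbeal2 (-1.33), Agap1, an Arf GTPase activator (-0.98), and Pir (-0.91), whose differences from HP tumors 5 to 7 were -0.31, 0.01, 0.25 and 0.07 and did not pass. Sema6d, a guidance cue, was lower than in HP tumors 1 to 4 (-0.87, limma adjusted p = 0.0494) and higher than in HP tumors 5 to 7 (0.53, limma adjusted p = 0.0411). Tenm3, a teneurin of synaptic wiring, had 9.48, 8.95 and 9.29 in the SVZ tumors, against 10.27 to 11.35 in HP tumors 1 to 4 (-1.47, limma adjusted p = 0.0404). HP tumors 5 to 7 had 9.75, 9.73 and 10.61 for Tenm3, also above the SVZ tumors. That difference of -0.79 did not pass (limma adjusted p = 0.0671). Smarca5, the motor of ISWI chromatin remodelers, was lower in both contrasts (-0.82 against HP tumors 1 to 4, limma adjusted p = 0.0199). From HP tumors 5 to 7 Smarca5 differed by -0.54 (limma adjusted p = 0.0125). Tenm3 and Smarca5 lie on chromosome 8, and Ptchd1 and Pir on the X chromosome.

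**Figure D5:**
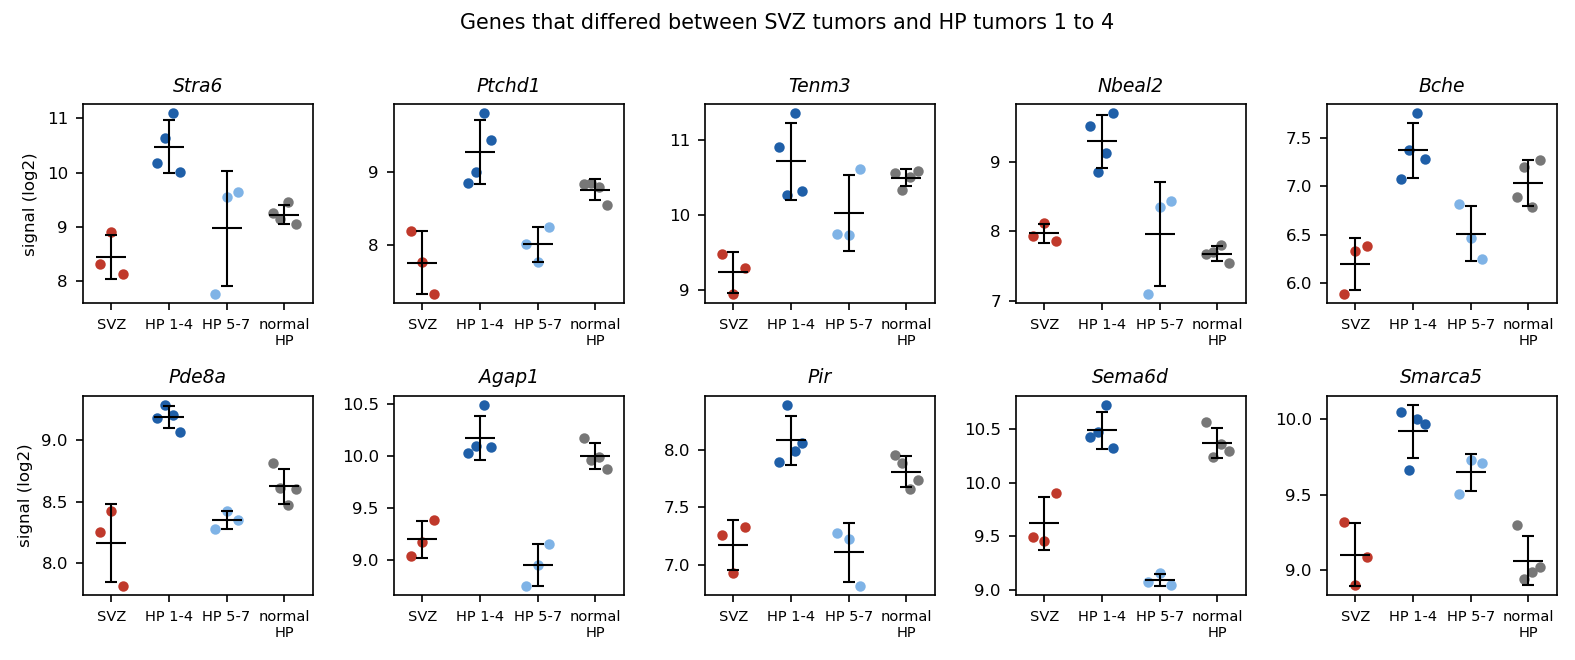
Log2 signal of 10 genes lower in SVZ tumors than in HP tumors 1 to 4 (1 panel each, vertical axis) in single arrays, with bars at the mean ± SD: SVZ tumors (red), HP tumors 1 to 4 (dark blue), HP tumors 5 to 7 (light blue) and normal hippocampus (grey). Red and dark blue points do not overlap, by the rule that chose the genes. For Sema6d HP tumors 5 to 7 lie below the SVZ tumors.

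Lists of neural cell types leaned lower in SVZ tumors without a single call. The median difference was -0.74 over 12 genes of oligodendrocyte precursors, -0.69 over 16 of astrocytes, -0.66 over 12 of oligodendrocytes and -0.61 over 20 of neurons, with 0 called in each list and all genes at 0.06. The medians against HP tumors 1 to 4 were -0.71, -0.44, -0.64 and -0.48 in the same order. Olig1, a transcription factor of the oligodendrocyte lineage, had 7.40, 8.29 and 8.04 in the SVZ tumors, against 8.40, 9.17 and 10.30 in the HP tumors (lowest, median, highest). The groups did not overlap, but its difference of -1.35 ± 0.52 missed the threshold (limma adjusted p = 0.222). Olig2 differed by -0.96 (limma adjusted p = 0.263), and Pdgfra, the growth factor receptor of precursors, by -0.10. SVZ tumors read 11.29, 11.01 and 8.81 for Pdgfra, so tumor 3 was low. Gfap, whose promoter drove Cre, had 9.60, 10.39 and 11.17 in the SVZ tumors, against 9.93, 11.56 and 12.71 in the HP tumors, and differed by -1.0 (limma adjusted p = 0.474).

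Stem cell, growth and matrix lists held no calls. The 17 stem and progenitor genes had a median of 0.13, with the intermediate filament gene Nes at 11.27, 11.66 and 10.67 in the SVZ tumors and 8.97 to 11.75 in the HP tumors. The 27 cell cycle genes had a median of 0.13 against HP tumors 1 to 7 but -0.50 against HP tumors 1 to 4, where 26 of 27 differences were negative and 40.9% of all genes were positive. The 23 matrix genes had medians of -0.27 and -0.44, the 24 growth factor and receptor genes -0.08 and -0.28 and the 18 genes of the RAS and MAPK response 0.13 and -0.24 in the same order of contrasts. Each of these lists had 0 called in both. A missed threshold with 3 SVZ arrays does not show that the sites were alike for these genes.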

How the data were processed

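RNA of tumors and of normal brain was hybridised to 30 whole-transcript arrays (Affymetrix Mouse Gene 1.0 ST). The deposited values are log2 signals per probe set; Affymetrix Power Tools, MAS5 and RMA are named in the submitters' processing notes, with no version or role, and how arrays were scaled to each other is not given in the sources used here. Of 35556 probe sets, 21789 had 1 symbol, 1621 several and 12146 none. Each of 19938 genes was read from its probe set with the highest mean over the 30 arrays, with 21698 probe sets matched to RefSeq (GRCm38.p6) names. The number of arrays limits the precision.

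Differences were tested with limma 3.58.1 in R 4.3.3 (lmFit, eBayes) on 7 group means over all 30 arrays, or 8 with HP tumors 5 to 7 as their own group, and called at a Benjamini-Hochberg adjusted p under 0.05 over all genes. The fit was tested on simulated data that gave each gene the same spread in all arrays. That test does not cover a spread that differs between normal and tumor arrays. Named were the 20 largest changes in each direction against HP tumors 1 to 7 and 10 against HP tumors 1 to 4, among called genes without overlap between groups, and members of 39 gene lists (574 genes measured). Provisional symbols, small RNAs and immunoglobulin segments were only counted. The members and lists were chosen with earlier results of these data known. Alternatives were scaling, filter, probe set choice, eBayes settings, arrays in the fit, array weights, thresholds, a replicate block and leaving out arrays; the Xist covariate and leaving out chromosomes 4, 8 and 16 were added after seeing the data. Python 3.11.15, pandas 2.3.3 and matplotlib 3.10.9 were used for tables and figures.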

Additional observations from a re-analysis of the deposited data

Results flagged for a closer look

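Among the 48 named genes, 1 had an HP array far from the rest of its group: Phgdh in HP tumor 6 read 9.67, against 8.68 to 9.05 in the other HP tumors, a gap of 0.63 of the whole range. Such a gap arises by chance in about 1 of 20 groups tested.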

How the results depend on the processing

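The counts of called genes (higher and lower in SVZ tumors) moved with most settings. Against HP tumors 1 to 7, with 30 and 33 called, they were 28 and 25 after median centring, 85 and 60 after quantile normalization, 30 and 16 with trend and robust eBayes, 55 and 72 without GFAP cortex tumor 1, 139 and 389 with array weights, 1 and 0 at adjusted p under 0.01, 16 and 5 at 2-fold or more, and 2 and 24 with HP tumors 5 to 7 left out of the fit. They were 25 and 7 with Xist as covariate and 20 and 1 without chromosomes 4, 8 and 16; both were added after seeing the data. Only the 10 compared arrays gave 0 and 0. Like counts did not mean the same genes. After median centring 18 of the 30 higher and 20 of the 33 lower genes kept their call. After quantile normalization 26 and 22 did, and without SVZ tumor 3 21 and 19. With HP tumors 5 to 7 left out of the fit 2 and 9 did. Leaving out single arrays gave 2 to 187 higher and 1 to 136 lower genes. Against HP tumors 1 to 4, with 2 and 21 called, the counts were 7 and 13 after centring, 11 and 22 after quantile normalization, 0 and 0 in the compared arrays alone (529 and 1358 at unadjusted p under 0.05), 19 and 75 without GFAP cortex tumor 1, 121 and 757 with array weights, 1 and 3 at adjusted p under 0.01, 1 and 9 at 2-fold, 0 and 3 with Xist and 2 and 6 without chromosomes 4, 8 and 16. Leaving out single arrays gave 0 to 28 higher and 3 to 82 lower genes. The cause of these moves was not tested, except that a stricter threshold lowers counts and that leaving out chromosomes 4 and 8 removes 22 of the 33 lower genes by construction; differences of the genes that remain are unchanged there, and only their adjusted p moved.

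With the replicate block 5 higher and 26 lower genes passed in both comparisons, since HP tumors 5 to 7 have no SVZ partner number. Residuals of same-numbered arrays correlated at 0.20, 0.00 and 0.03, within the -0.339 to 0.325 of pairs with different numbers. So few pairs cannot show whether the numbers stand for a batch or an order, and the labels do not say. Of 1096 values of the 48 named genes over the settings, 642 kept direction and call, 454 lost the call and 0 reversed. Where a setting left out arrays or genes, or changed weights, thresholds or eBayes, the direction was fixed by the choice of genes without overlap. The 0 reversals there say nothing about robustness. In every setting 0 genes kept the call. Nkg7, Gzmk and Pnldc1 have no value without the 30% of genes with the lowest mean.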
